A study of Mus musculus with 16 samples.

Results

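The genes described here are 10 genes whose expression marks lipid-associated macrophages, namely Mmp12, Gpnmb, Trem2, Spp1, Itgax, Cd9, Cd63, Lgals3, Atp6v0d2 and Tyrobp. They were chosen by symbol, and all 10 were found among the 50559 gene symbols measured in mouse liver. Liver RNA was sequenced from male C57BL/6J mice, with 4 libraries in each of 4 groups, to compare knockdown of ketohexokinase (KHK), the enzyme that phosphorylates fructose, with inhibition of its kinase activity. Diets were started at 6 weeks of age and given for 10 weeks, and treatments were given over the last 4 weeks. The LFD group received a low-fat diet (called chow in the deposited labels), and the 3 HFD groups received a 60% fat diet. An siRNA was injected every 2 weeks in all 4 groups, directed to KHK in HFD + siRNA (20 mg/kg) and to luciferase as a control in the others (10 mg/kg). All mice were also gavaged, with the KHK inhibitor PF-06835919 in HFD + Inhib (15 mg/kg, 2 times daily) and with its methylcellulose vehicle elsewhere. The siRNA is directed to hepatocytes, whereas the inhibitor acts systemically. The study's methods mention saline or insulin injection shortly before tissue collection, and the labels do not say which of these mice received which.

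Macrophages of fatty liver and adipose tissue take up lipid from dying cells and lipoproteins and break it down in lysosomes. Trem2 encodes a surface receptor for lipids and apolipoproteins, which signals through the adaptor encoded by Tyrobp. Macrophages with this receptor express secreted proteins, tetraspanins and lysosomal genes together, and in the liver they are found around lipid-laden hepatocytes, beside the resident Kupffer cells. The member genes are also used by other cells: Spp1 by bile duct cells, Cd9 and Cd63 by many cell types, Itgax by dendritic cells, and Tyrobp by myeloid and NK cells. In bulk liver RNA, fewer macrophages and less RNA of these genes per macrophage cannot be told apart.

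Promoter windows of Mmp12, Trem2, Cd9 and Lgals3 are shown because each of these genes had a difference between groups that was called under every setting tried, and because Cd9 differed in direction from the others. RefSeq windows (build GRCm38.p6) matched 8 of the 10 members, not Atp6v0d2 and Tyrobp, and were searched over the 250 bases upstream of the start. Capitals mark matches to letters bound by macrophage transcription factors: TGANTCA (AP-1), GAGGAAG (PU.1) and CATGTG (M-box of the MiT/TFE factors), on either strand. Mmp12 has 2 windows, of which only the more downstream is shown. This Mmp12 window (chr9:7347124-7347373, plus strand), the Trem2 window (chr17:48346151-48346400, plus strand), the Cd9 window (chr6:125494761-125495010, minus strand) and the Lgals3 window (chr14:47373610-47373859, plus strand) read as follows.
Mmp12: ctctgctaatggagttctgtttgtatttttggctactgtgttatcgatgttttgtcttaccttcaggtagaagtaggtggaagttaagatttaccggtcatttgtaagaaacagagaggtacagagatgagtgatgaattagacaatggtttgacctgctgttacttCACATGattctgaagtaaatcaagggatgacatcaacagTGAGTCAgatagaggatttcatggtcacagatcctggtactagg
Trem2: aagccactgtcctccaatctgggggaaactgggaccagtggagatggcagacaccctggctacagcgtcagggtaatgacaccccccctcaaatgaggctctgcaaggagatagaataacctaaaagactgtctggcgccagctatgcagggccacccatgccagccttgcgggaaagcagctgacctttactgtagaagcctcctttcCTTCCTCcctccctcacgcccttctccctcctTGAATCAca
Cd9: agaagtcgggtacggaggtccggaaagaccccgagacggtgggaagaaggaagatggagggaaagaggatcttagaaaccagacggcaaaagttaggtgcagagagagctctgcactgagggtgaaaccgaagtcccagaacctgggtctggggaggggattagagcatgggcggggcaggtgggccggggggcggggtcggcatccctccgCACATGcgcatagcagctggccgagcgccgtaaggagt
Lgals3: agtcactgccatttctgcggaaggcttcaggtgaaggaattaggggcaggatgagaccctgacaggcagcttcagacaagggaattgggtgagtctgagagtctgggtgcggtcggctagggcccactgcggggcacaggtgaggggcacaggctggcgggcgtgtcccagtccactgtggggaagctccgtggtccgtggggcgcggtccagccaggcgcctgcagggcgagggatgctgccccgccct
The Mmp12 window shown held an M-box match at position -83 and an AP-1 match at -44. The Trem2 window held a PU.1 match at -41 and an AP-1 match at -9, and the Cd9 window held an M-box match at -38. The Lgals3 window held none of these letters. Among the other members, an AP-1 match was found in Itgax at -56, and PU.1 matches were found in Cd63 at -60, in 1 of the 2 windows of Spp1 at -113 and in the other, more upstream window of Mmp12 at -87. The E-box CACGTG was found in no member window. Over all 32851 RefSeq windows searched in the same way, 6.75% held the AP-1 letters, 10.6% the PU.1 letters, 12.3% the M-box letters and 6.02% the E-box letters. The matches are a description of the sequence, and binding was not measured.

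The library totals ranged from 24317111 to 35820234 expected counts, and levels are given as CPM (counts scaled to the TMM-adjusted library total). In the HFD group Khk, the target of the siRNA, was at 251, 322, 233 and 251 CPM. In the HFD + siRNA group Khk was at 11.8, 9.14, 18.1 and 11.5 CPM, and in the HFD + Inhib group at 112, 152, 94.6 and 120 CPM. Khk was 20.9-fold lower with the siRNA (adjusted p = 1.88e-08), and it also fell with the inhibitor (log2 fold change -1.14, SE 0.20, adjusted p = 7.52e-04). Hepatocyte markers were abundant in every library, with Alb, which encodes albumin, as the most abundant of the list. Tests are edgeR's quasi-likelihood tests over all 18335 genes that passed the filter on low counts, with Benjamini-Hochberg adjustment and a threshold of 0.05, and all 10 members passed that filter. Several members were measured at low depth: Mmp12 had 3 to 7 expected counts in LFD and 72 to 152 in HFD, and Trem2 had 3 to 52 and Gpnmb 3 to 59 over all libraries.

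HFD replicate 2 stood apart from the other HFD libraries and is named here before the results. It had the highest HFD level of 7 of the 10 members (Mmp12, Gpnmb, Trem2, Itgax, Cd9, Cd63 and Lgals3). Its summed adipocyte markers were at 11.43 CPM, where the other HFD libraries were at 3.68 to 6.00 CPM, and its summed T, NK and B cell markers were at 7.76 CPM, where the others were at 2.73 to 5.28 CPM. Lep, the adipocyte hormone leptin, had 21 counts in this library and 0 in the other 15. Cd8a, a T cell coreceptor chain, had 83 counts in it and 4 to 6 in the other HFD libraries, and 35 in LFD replicate 4. Adipoq and Plin1, further adipocyte genes, had 10 and 9 counts in HFD replicate 2, 16 and 15 in LFD replicate 3 (adipocyte sum 12.8 CPM) and 7 and 6 in LFD replicate 4. These genes were picked with their values in view. The 6 members called with HFD became 2 without LFD replicate 1 or LFD replicate 3, 3 without HFD replicate 2 or HFD replicate 3, 4 without LFD replicate 2 or HFD replicate 1 or 4, and 5 without LFD replicate 4. Those called without HFD replicate 2 were Mmp12 (log2 fold change 3.96), Cd9 (-1.32) and Atp6v0d2 (1.33), while Gpnmb (adjusted p = 0.158), Spp1 (0.0595) and Lgals3 (0.117) were not called. Against HFD without this library, the inhibitor comparison called Mmp12 (-3.28), Cd9 (0.82) and Lgals3 (-1.03) but not Trem2 (adjusted p = 0.178), and Mmp12 was still lower with the siRNA (-2.38).

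With HFD, 5 of the 10 members rose (Mmp12, Gpnmb, Spp1, Lgals3 and Atp6v0d2) and 1 fell (Cd9), where 18.4% of all genes tested were called (9.58% higher and 8.8% lower). With the siRNA, 1 member fell against HFD (Mmp12) and none rose, where 11.7% of all genes were called (5.2% higher and 6.55% lower). With the inhibitor, 3 members fell against HFD (Mmp12, Trem2 and Lgals3) and 1 rose (Cd9), where 18.2% of all genes were called (9.8% higher and 8.42% lower). Between the treatments, 5 members were lower with the inhibitor than with the siRNA (Mmp12, Trem2, Lgals3, Atp6v0d2 and Tyrobp) and 1 was higher (Cd9), where 33.8% of all genes were called (17.3% higher and 16.6% lower). The members' median log2 fold change was 0.62 with HFD, -0.04 with the siRNA, -0.83 with the inhibitor and -0.65 between inhibitor and siRNA, against medians over all genes of -0.01, 0.02, -0.0044 and -0.04. The comparisons share libraries, so their values stand side by side and are not independent of each other. Across 8578 well expressed genes, log2 fold changes followed the GC content of the transcript, with a Spearman correlation of -0.52 for HFD versus LFD, 0.51 for siRNA versus HFD, -0.27 for inhibitor versus HFD, -0.54 for inhibitor versus siRNA, -0.08 for siRNA versus LFD and -0.56 for inhibitor versus LFD. The members' transcripts ranged from 40.1% GC (Mmp12) to 57.5% (Trem2), and calls that a correction for GC content and length ended or added are named below. With this correction 3 members were called with HFD, and 6 were called for inhibitor versus HFD in place of 4.

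**Figure D1:**
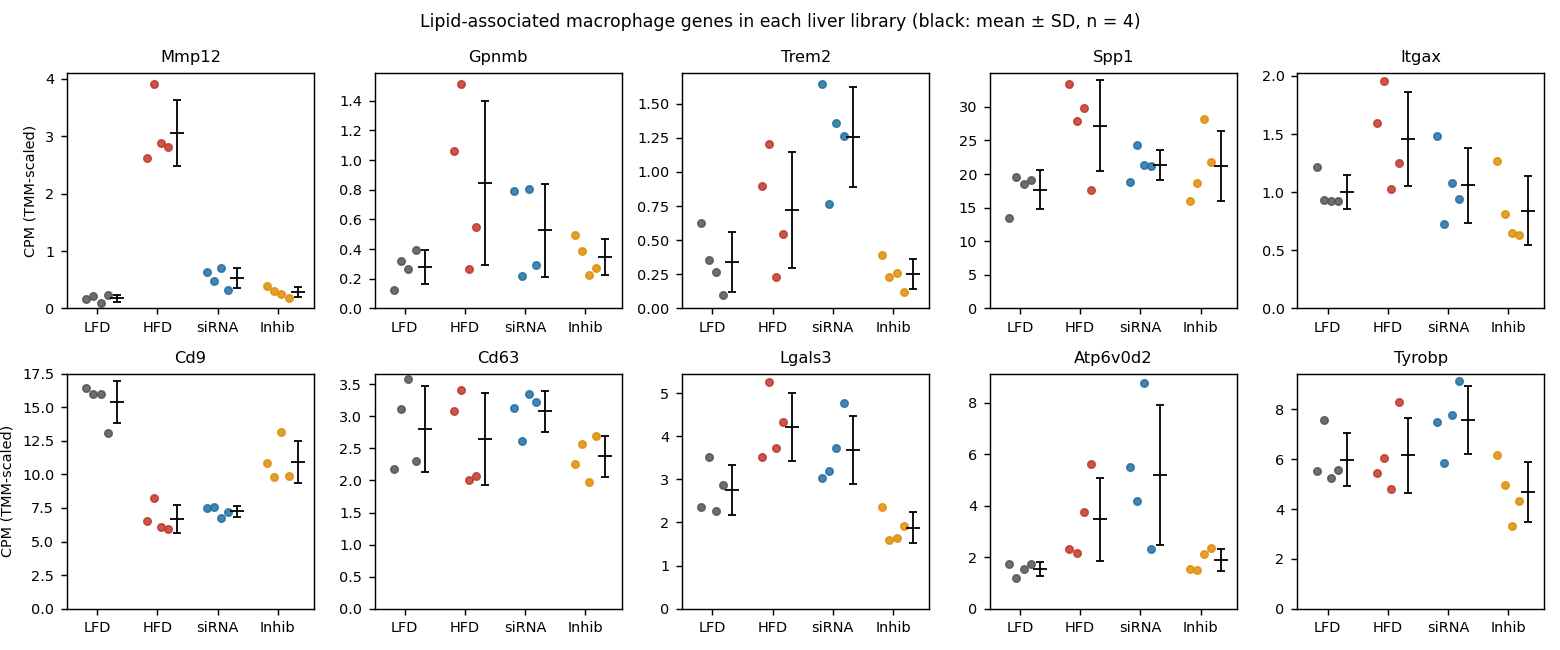
Level of each member gene in CPM (vertical axis, from 0) in the 4 libraries of each group (points), with the mean ± SD in black. Mmp12 was high in the 4 HFD libraries (2.62 to 3.90 CPM) and at most 0.698 CPM in the other groups, Cd9 was highest in LFD, and Trem2 had its highest values in HFD + siRNA.

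Mmp12 encodes macrophage metalloelastase, a secreted protease that degrades elastin. Mmp12 was at 0.168, 0.215, 0.0896 and 0.231 CPM in the LFD libraries and at 2.62, 3.90, 2.88 and 2.81 CPM in the HFD libraries. Mmp12 was at 0.633, 0.473, 0.698 and 0.322 CPM in HFD + siRNA and at 0.389, 0.311, 0.259 and 0.180 CPM in HFD + Inhib. Every HFD library was above every library of the other groups, and the HFD + siRNA libraries were above the LFD libraries, whereas HFD + Inhib and LFD overlapped. Mmp12 rose 17.2-fold with HFD (log2 fold change 4.11, SE 0.32, adjusted p = 2.88e-06). It fell with the siRNA (log2 fold change -2.52, SE 0.27, adjusted p = 8.25e-05) and with the inhibitor (-3.42, SE 0.30, adjusted p = 1.15e-06). After the siRNA it was still higher than in LFD (log2 fold change 1.58, SE 0.35, adjusted p = 0.00992), a call lost in a fit of only these 2 groups (adjusted p = 0.0567). After the inhibitor its difference from LFD was 0.68 (95% interval -0.12 to 1.48, adjusted p = 0.168), and 0.22 with the GC correction. In HFD + siRNA against LFD, 3 members were higher (Mmp12, Trem2 and Atp6v0d2) and 1 was lower (Cd9), where 8.63% of all genes were called (4.75% higher and 3.88% lower). In HFD + Inhib against LFD, 2 members were lower (Cd9 and Lgals3) and none was higher, where 36.9% of all genes were called (18.8% higher and 18.2% lower). Mmp12 was lower with the inhibitor than with the siRNA (log2 fold change -0.90, SE 0.32, adjusted p = 0.0398), a call that was lost without HFD + siRNA replicate 1 or 3 or HFD + Inhib replicate 2, 3 or 4 (adjusted p = 0.0581 to 0.124). It was also lost with DESeq2 (adjusted p = 0.0572), with no filter (0.0785) and with only the 2 groups fitted (0.0818), whereas with the GC correction the difference was -1.37 (adjusted p = 0.00478).

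The other secreted members are Spp1, which encodes osteopontin, a matrix protein and ligand of integrins, and Lgals3, which encodes galectin-3, a lectin of activated macrophages. Lgals3 was at 2.35, 3.51, 2.27 and 2.87 CPM in LFD and at 3.51, 5.27, 3.72 and 4.34 CPM in HFD. Lgals3 was at 3.04, 3.20, 3.73 and 4.78 CPM in HFD + siRNA and at 2.37, 1.59, 1.65 and 1.92 CPM in HFD + Inhib. The HFD + Inhib libraries were below all libraries of HFD and HFD + siRNA, while HFD and HFD + siRNA overlapped. Lgals3 fell with the inhibitor against HFD (log2 fold change -1.16, SE 0.20, adjusted p = 7.42e-04), and it was lower with the inhibitor than with the siRNA (-0.97, SE 0.20, adjusted p = 0.00167). The difference between siRNA and HFD was -0.19 (95% interval -0.60 to 0.22, adjusted p = 0.569). The rise of Lgals3 with HFD was small (log2 fold change 0.62, SE 0.20, adjusted p = 0.0385) and was lost without LFD replicate 1, 3 or 4 or HFD replicate 2, 3 or 4 (adjusted p = 0.0502 to 0.117), with no filter (0.0543) and with only the 2 groups fitted (0.0636). Against LFD, Lgals3 was lower in HFD + Inhib (log2 fold change -0.54, SE 0.20, adjusted p = 0.0462), a call lost without LFD replicate 2 or 4 or HFD + Inhib replicate 2, 3 or 4 (adjusted p = 0.0795 to 0.139) and with the GC correction (adjusted p = 0.185), no filter (0.0852), at least 10 counts in at least 8 libraries (0.0513), the replicate block (0.0577) and only the 2 groups fitted (0.0794).

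Spp1 was at 13.5, 19.6, 18.5 and 19.2 CPM in LFD and at 33.4, 27.8, 29.9 and 17.7 CPM in HFD. In HFD + siRNA it ranged from 18.9 to 24.3 CPM and in HFD + Inhib from 16.04 to 28.14 CPM. HFD replicate 4 lay within the LFD range, and the other 3 HFD libraries lay above it. Spp1 rose with HFD (log2 fold change 0.62, SE 0.19, adjusted p = 0.0313), and the call was lost without LFD replicate 1 or 3 or HFD replicate 1, 2 or 3 (adjusted p = 0.0595 to 0.0949), with the GC correction (adjusted p = 0.0972) and with only the 2 groups fitted (0.0555). Against HFD its difference was -0.35 with the siRNA (95% interval -0.74 to 0.05) and -0.36 with the inhibitor (95% interval -0.76 to 0.04), neither past the threshold. With the GC correction the difference of inhibitor from HFD was -0.56 and passed (adjusted p = 0.0358). Of the 50-base words of the Spp1 transcript, 9.05% are shared with the predicted gene Gm42793, so a part of its reads could be divided between them.

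Among the surface receptors, Trem2 was at 0.629, 0.358, 0.269 and 0.0989 CPM in LFD and at 0.895, 1.21, 0.228 and 0.547 CPM in HFD. Trem2 was at 1.65, 0.765, 1.36 and 1.26 CPM in HFD + siRNA and at 0.389, 0.233, 0.259 and 0.120 CPM in HFD + Inhib. All HFD + siRNA libraries were above all LFD and all HFD + Inhib libraries, whereas the HFD libraries spread over the ranges of the other 3 groups. Trem2 was lower with the inhibitor than with the siRNA (log2 fold change -2.33, SE 0.51, adjusted p = 0.00223), a 5.03-fold difference between the treatments. It was higher in HFD + siRNA than in LFD (log2 fold change 1.93, SE 0.49, adjusted p = 0.0227), and this call was lost without LFD replicate 3 or 4 or HFD + siRNA replicate 1 or 3 (adjusted p = 0.0526 to 0.0629). Against HFD it fell with the inhibitor (log2 fold change -1.56, SE 0.52, adjusted p = 0.0468), and this call was lost without HFD replicate 1, 2 or 4 or HFD + Inhib replicate 2, 3 or 4 (adjusted p = 0.0555 to 0.178), with no filter (0.0526) and with only the 2 groups fitted (0.0575). The differences of HFD from LFD (1.15, 95% interval 0.09 to 2.22, adjusted p = 0.122) and of siRNA from HFD (0.77, 95% interval -0.17 to 1.71, adjusted p = 0.285) did not pass the adjusted threshold. In order of mean level, Trem2 was thus highest in HFD + siRNA (1.26 ± 0.367 CPM, SD, n = 4), then in HFD (0.719 ± 0.424), LFD (0.339 ± 0.221) and HFD + Inhib (0.250 ± 0.110), and of the neighbours in that order no pair differed past the threshold.

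Tyrobp, the adaptor of Trem2 and of other activating receptors, was at 5.53, 7.56, 5.23 and 5.57 CPM in LFD and at 5.43, 6.06, 4.82 and 8.29 CPM in HFD. Tyrobp was at 7.50, 5.86, 7.78 and 9.14 CPM in HFD + siRNA and at 6.18, 4.97, 3.30 and 4.32 CPM in HFD + Inhib. The groups overlapped in every comparison. Tyrobp was lower with the inhibitor than with the siRNA (log2 fold change -0.69, SE 0.20, adjusted p = 0.0155), a call lost without HFD + siRNA replicate 4 (adjusted p = 0.0563), without HFD + Inhib replicate 3 (0.0538) and with the GC correction (0.0583). Its difference between HFD and LFD was 0.04 (95% interval -0.39 to 0.47), and 0.42 with the GC correction (adjusted p = 0.131). Against HFD its difference with the inhibitor was -0.39 (adjusted p = 0.211), and with the GC correction it was -0.55 and passed (adjusted p = 0.0425). Itgax, which encodes CD11c, an integrin subunit of dendritic cells and of macrophages in fatty tissue, ranged from 0.630 to 1.95 CPM over the 16 libraries and passed the threshold in no comparison. The nearest was inhibitor versus HFD (log2 fold change -0.81, SE 0.28, adjusted p = 0.0553), where DESeq2 gave an adjusted p of 0.0427 and the replicate block 0.0290. Of the Itgax words, 9.61% are shared with Itgad, its neighbouring paralog, which had at most 4 counts in any library.

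The tetraspanins Cd9 and Cd63 organise membrane proteins at the cell surface and in endosomes and lysosomes. Cd9 was at 16.43, 16.02, 16.01 and 13.05 CPM in LFD and at 6.50, 8.22, 6.11 and 5.90 CPM in HFD. Cd9 was at 7.50, 7.61, 6.73 and 7.18 CPM in HFD + siRNA and at 10.8, 9.79, 13.2 and 9.89 CPM in HFD + Inhib. The LFD libraries were above all HFD and HFD + siRNA libraries, and the HFD + Inhib libraries lay above both of these groups and overlapped LFD at 1 library on each side. Cd9 fell 2.29-fold with HFD (log2 fold change -1.20, SE 0.13, adjusted p = 3.26e-05), the opposite direction to the members that rose. It rose with the inhibitor against HFD (log2 fold change 0.71, SE 0.13, adjusted p = 8.93e-04) and was higher with the inhibitor than with the siRNA (0.59, SE 0.12, adjusted p = 0.00183). It remained lower than in LFD in HFD + siRNA (log2 fold change -1.08, adjusted p = 7.81e-05) and in HFD + Inhib (-0.49, adjusted p = 0.00522). Cd9 is widely expressed outside macrophages, and 14.3% of its words lie antisense to Gm26728, whose reads cannot be told apart from those of Cd9 if strand was not used in counting. Cd63 ranged from 1.98 to 3.58 CPM over the 16 libraries and passed the threshold in no comparison, and 36.5% of its words are shared with the pseudogene Cd63-ps.

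Gpnmb and Atp6v0d2 belong to the lysosomal members. Gpnmb encodes a glycoprotein of lysosomes and the cell surface that is induced under lysosomal stress, and Atp6v0d2 encodes a subunit of the vacuolar proton pump of macrophages and osteoclasts. Atp6v0d2 was at 1.72, 1.18, 1.55 and 1.75 CPM in LFD and at 2.32, 2.18, 3.76 and 5.63 CPM in HFD. Atp6v0d2 was at 5.50, 4.19, 8.76 and 2.31 CPM in HFD + siRNA and at 1.55, 1.52, 2.14 and 2.37 CPM in HFD + Inhib. The LFD libraries were below all HFD and HFD + siRNA libraries, and HFD + Inhib overlapped each of the other groups. Atp6v0d2 was higher in HFD + siRNA than in LFD (log2 fold change 1.74, SE 0.36, adjusted p = 0.00740), and it was lower with the inhibitor than with the siRNA (-1.44, SE 0.36, adjusted p = 0.00544). It rose with HFD (log2 fold change 1.15, SE 0.37, adjusted p = 0.0380), and this call was lost without LFD replicate 1, 2 or 3 or HFD replicate 3 or 4 (adjusted p = 0.0678 to 0.147) and with the GC correction (adjusted p = 0.120). Its differences from HFD were 0.59 with the siRNA (95% interval -0.14 to 1.32) and -0.86 with the inhibitor (95% interval -1.62 to -0.10, adjusted p = 0.113).

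Gpnmb was at 0.126, 0.322, 0.269 and 0.396 CPM in LFD and at 1.06, 1.52, 0.266 and 0.547 CPM in HFD. It ranged from 0.218 to 0.802 CPM in HFD + siRNA and from 0.227 to 0.495 CPM in HFD + Inhib. HFD replicates 1 and 2 were above every library of the other groups, and HFD replicate 3 lay within the LFD range. Gpnmb rose with HFD (log2 fold change 1.60, SE 0.53, adjusted p = 0.0441), a call lost without LFD replicate 1, 2 or 3 or HFD replicate 1 or 2 (adjusted p = 0.0610 to 0.158), with the GC correction (adjusted p = 0.0517), with the replicate block (0.0821) and with only the 2 groups fitted (0.0706). Against HFD its differences were -0.72 with the siRNA (95% interval -1.75 to 0.32) and -1.33 with the inhibitor (95% interval -2.42 to -0.25, adjusted p = 0.0838), and the inhibitor comparison passed the threshold without HFD replicate 3 (adjusted p = 0.0297).

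**Figure D2:**
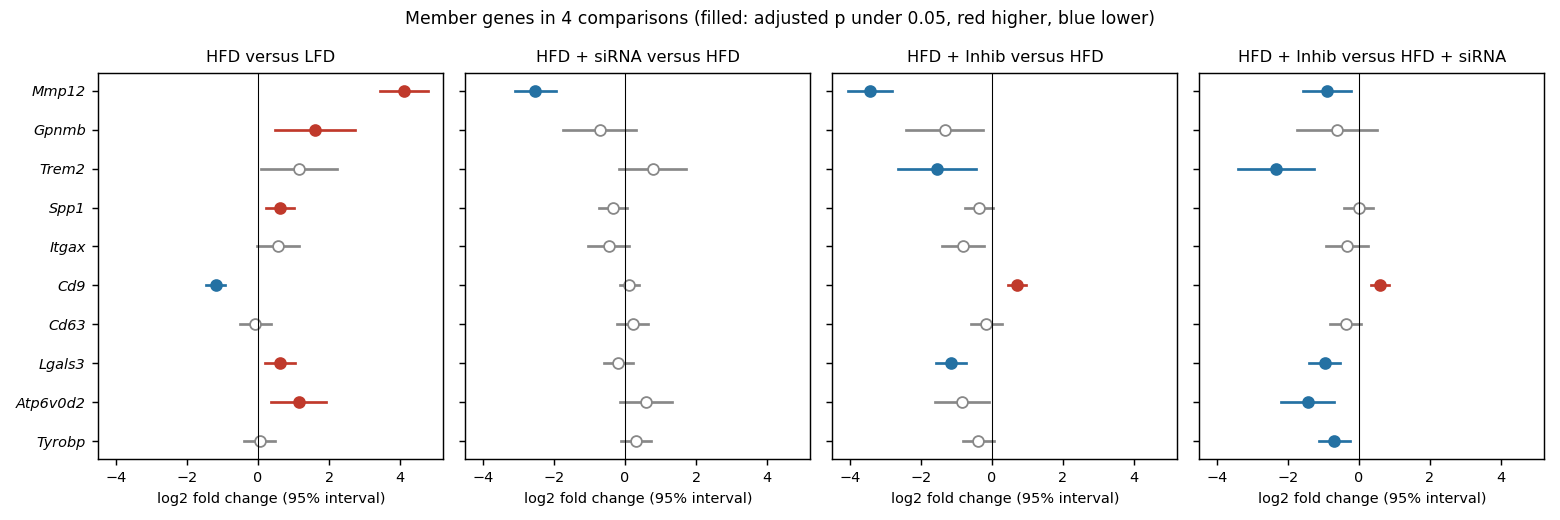
Log2 fold change of each member (horizontal axis) with its 95% interval in 4 comparisons, where filled points passed the adjusted threshold (red higher, blue lower) and open points did not. Mmp12 had the largest change with HFD (4.11) and fell with both treatments (-2.52 and -3.42), and Cd9 moved against the other called members with HFD (-1.20) and with the inhibitor (0.71).

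Per kilobase of transcript (the longest protein-coding transcript of GENCODE M21), Cd9, Spp1 and Tyrobp had the highest levels in every group. In LFD they stood at 12.5 ± 1.27, 11.7 ± 1.90 and 10.0 ± 1.79 CPM per kilobase (SD, n = 4), which is within each other's spread. In HFD the order was Spp1 (18.1 ± 4.49), Tyrobp (10.3 ± 2.53) and Cd9 (5.44 ± 0.859). Mmp12 was the lowest of the 10 in LFD (0.0487 ± 0.0176 CPM per kilobase) and stood at rank 7 in HFD (0.847 ± 0.160), within the spread of Trem2 (0.661 ± 0.390). Mmp12, Gpnmb, Trem2 and Itgax took the 4 lowest ranks in every group.

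The members did not vary as a single block across the libraries. Over the 16 libraries, 34 of the 45 pairs of members had a positive Pearson correlation of log2 CPM, 12 pairs reached 0.5, and the median was 0.34. These values hold the members' group differences, which were not alike, and the libraries' depth. For deviations from the group means, 29 pairs were positive, 7 reached 0.5, and the median was 0.21. Within groups the closest pairs were Trem2 with Itgax (0.78), Gpnmb with Itgax (0.70), Lgals3 with Tyrobp (0.67) and Gpnmb with Cd63 (0.63). Cd9 was negatively correlated with Mmp12 (-0.78) and Atp6v0d2 (-0.75) over all libraries, but within groups these values were 0.05 and -0.35. Trem2 with Atp6v0d2 went from 0.51 over all libraries to -0.28 within groups. In the HFD group, replicates 1 and 2 were above replicates 3 and 4 for Gpnmb, Trem2, Itgax and Cd63, while Atp6v0d2 and Tyrobp were highest in replicate 4. Replicate 2 is the library with the leptin and Cd8a counts given above.

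**Figure D3:**
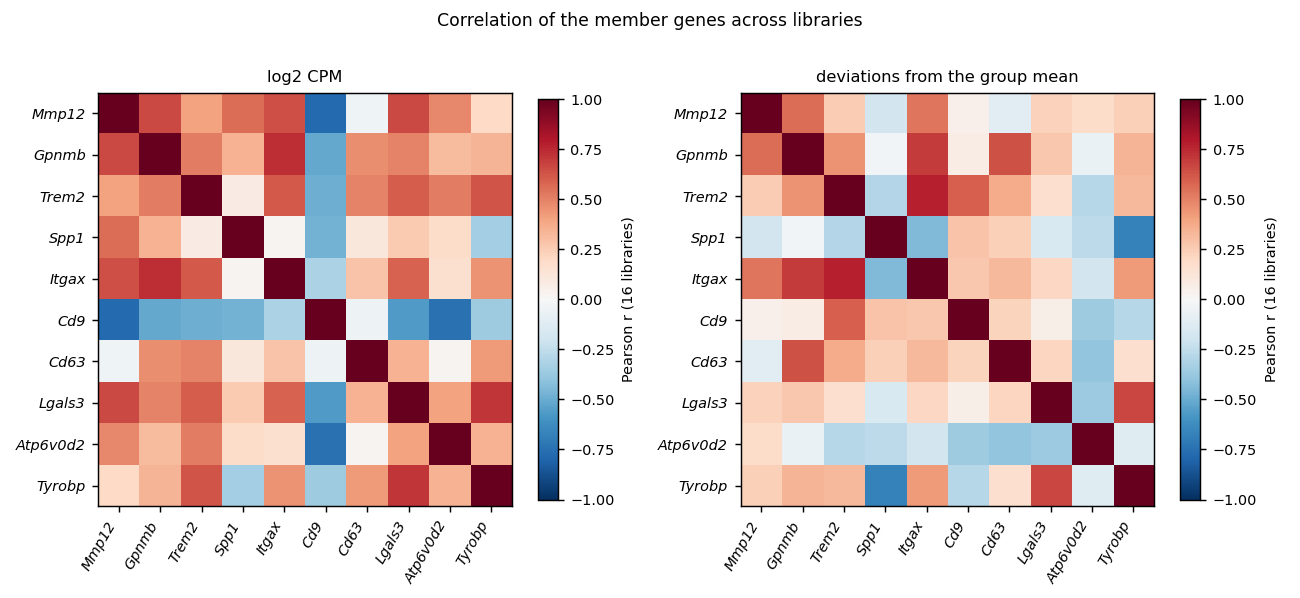
Pearson correlation (color, from -1 to 1) of each pair of members over 16 libraries, for log2 CPM on the left and for deviations from the group mean on the right. The negative values of Cd9 on the left (-0.78 with Mmp12) are weaker or absent on the right (0.05), whereas Trem2 with Itgax is positive in both (0.61 and 0.78).

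Genes around the members were followed as 10 lists of their pathways, and up to 4 genes of each list are named by a fixed order of adjusted p in HFD versus LFD. Genes named beyond those 4 were named after their values were seen. When each library was left out in turn, 13 of 24 calls over these and the marker lists held throughout for HFD versus LFD, 4 of 9 for siRNA versus HFD, 22 of 46 for inhibitor versus HFD and 48 of 69 for inhibitor versus siRNA, and none changed sign. Only this check was made for the list genes, and their calls were not examined with the GC correction or the other alternatives. With HFD the calls of Lipa, Ccl2, Ccr2, Cx3cr1, Cfd, Adrb3 and Apoa1 were lost without HFD replicate 2, and those of Ctsa, Atp6v1a, Tfe3 and Reln without some other library. With the siRNA the calls lost without some library included Lipa, Ctsb, Atp6v0e and Itgav. With the inhibitor those lost without HFD replicate 2 included Ctsl, Lgmn, Atp6v1g1, Cd37, Itgb2, Itgal, Itgb5, Mmp19, Timp3, Ccl5, Csf1, Cd5l, Folr2, F13a1, Nkg7 and Lyve1, and Ctsa, Ctsd, Psap, Lyn, Lgals1, Spi1 and Pdgfrb were lost without some other library. Among 14 genes of TREM and TYROBP signalling, 10 were tested, and the list's median log2 fold change was 0.02 with HFD, 0.06 with the siRNA and -0.32 with the inhibitor. With HFD 1 gene rose, Adam10 (0.41), which encodes a protease that sheds TREM2. With the siRNA 1 gene fell, Adam17 (-0.57), another sheddase of TREM2. With the inhibitor Lyn (-0.26) and Plcg2 (-0.49), a kinase and a phospholipase downstream of the receptor, fell, and the phosphatase gene Ptpn6 rose (0.40). Card9 passed in none of these comparisons. Between inhibitor and siRNA, 4 genes were lower (Syk, Plcg2, Inpp5d and Vav1) and Adam17 was higher. The call of Inpp5d held whichever library was left out, while those of Syk (highest adjusted p = 0.0643), Plcg2 (0.0548), Vav1 (0.0521, without HFD + siRNA replicate 1) and Adam17 (0.0908) were lost without some library. Trem1 and Trem3 had at most 2 and 3 counts in any library.

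Of 11 matrix metalloproteinases and their inhibitors beside Mmp12, 7 were tested, with a median log2 fold change of 0.02 with HFD, 0.06 with the siRNA and -0.36 with the inhibitor. Mmp13, a collagenase, had a mean of 0.0890 ± 0.0684 CPM (SD, n = 4) in LFD and 0.651 ± 0.272 in HFD, against 0.317 ± 0.109 in HFD + siRNA and 0.0408 ± 0.0316 with the inhibitor. Mmp13 rose with HFD (log2 fold change 2.86, adjusted p = 0.00288) and was lower with the inhibitor than in HFD (adjusted p = 3.94e-04), for which no fold is given since it had at most 2 counts in each HFD + Inhib library. The LFD libraries held 0 to 5 counts of Mmp13. With the siRNA its difference from HFD was -1.04 (adjusted p = 0.151). Mmp19 rose with HFD (0.59) and fell with the inhibitor (-0.36), and with the inhibitor Timp2 fell (-0.48) and Timp3 rose (0.36). With the siRNA none of the 7 passed. Mmp3 had at most 3 counts in any library.

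All 4 galectins besides Lgals3 were tested (median log2 fold change 0.23 with HFD, 0.27 with the siRNA and 0.22 with the inhibitor). Lgals1 rose with HFD (1.28, from 7.91 ± 1.53 to 19.1 ± 2.51 CPM) and was higher still with the siRNA (1.36 against HFD, 49.3 ± 6.73 CPM), while Lgals3 did not pass with the siRNA. Lgals8 rose with HFD (0.47), and with the inhibitor Lgals1 (0.50) and Lgals4 (1.62) rose, whereas Lgals3 fell. Lgals9, the most abundant galectin, passed in none of these 3 comparisons. Among 5 leukocyte tetraspanins (median log2 fold change -0.02 with HFD, -0.10 with the siRNA and -0.26 with the inhibitor), Cd53, Cd81 and Cd82 passed in none of the 3 comparisons and Cd37 fell with the inhibitor (-0.85). Among 9 leukocyte integrins and osteopontin receptors, 8 were tested (medians -0.15, 0.09 and -0.01). None passed with HFD, Itgav rose with the siRNA (0.25), and Itgb2 (-0.55), which encodes the partner subunit of CD11c, Itgal (-0.58) and Itgb5 (-0.44) fell with the inhibitor, while Itgb3 and Itgam did not pass.

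Among 18 lysosomal hydrolases and membrane proteins (median log2 fold change -0.03 with HFD, 0.0019 with the siRNA and -0.06 with the inhibitor), Ctsz (-0.68), Acp5 (-0.55) and Ctsa (-0.34) fell with HFD. With the siRNA Ctsb rose (0.37) and Lamp2 fell (-0.55). With the inhibitor Ctsd (0.31) and Psap (0.28) rose and Ctsa (-0.30), Ctsl (-0.30) and Lgmn (-0.38) fell. Among 15 other subunits of the vacuolar ATPase (medians -0.0060, 0.10 and -0.04), Atp6v1a rose (0.28) and Atp6v1g1 fell (-0.50) with HFD, Atp6v0e rose with the siRNA (0.34) and Atp6v1g1 rose with the inhibitor (0.26). Atp6v1e1 and Atp6ap2 passed in none of these 3. The calls among the lysosomal hydrolases and membrane proteins went in both directions with each treatment, and hepatocytes also express these genes.

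The 10 genes of lipid handling in foam cells, which hepatocytes express as well, had medians of 0.24 with HFD, -0.12 with the siRNA and 1.25 with the inhibitor. With HFD Cd36, a fatty acid transporter (1.78), Nceh1 (0.90) and Lipa (0.29), which hydrolyse cholesterol esters, rose, and Fabp5 (-3.00), a fatty acid binding protein, fell. Fabp5 was at 75.4 CPM in LFD replicate 1 and at 14.8 to 17.3 CPM in the other LFD libraries, and without that library the log2 fold change was -2.07 (adjusted p = 0.00583). With the siRNA Nceh1 (-0.80) and Lipa (-0.30) fell. With the inhibitor 6 genes rose, Lpl (3.17), Fabp4 (3.30), Fabp5 (3.08), Cd36 (2.03), Plin2 (1.45) and Nceh1 (1.05), and none fell. The direction of these genes with the inhibitor was thus opposite to that of Mmp12, Trem2 and Lgals3. Among 8 regulators of macrophage and lysosome genes (medians -0.09, 0.09 and -0.25), Pparg rose (0.55) and Tfe3 fell (-0.37) with HFD, none passed with the siRNA, and Spi1, which encodes PU.1, fell with the inhibitor (-0.77). Nr1h3 and Csf1r did not pass in these comparisons, and both were lower with the inhibitor than with the siRNA (-0.41 and -0.61), whichever library was left out. Of 10 chemokines and growth factors of myeloid cells, 5 were tested (medians 0.20, -0.09 and -0.40). Ccl2, the main attractant of monocytes, rose with HFD (1.23), its difference with the siRNA was -1.04 (adjusted p = 0.0731), and it fell with the inhibitor (-2.31), with 1 to 7 counts in the HFD + Inhib libraries. Csf1 (-0.40) and Ccl5 (-1.58), which had 3 to 15 counts in the HFD + Inhib libraries, fell with the inhibitor, and Cx3cl1 did not pass.

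Markers of other cells were set beside these results. All 11 resident Kupffer cell markers were tested. Their summed level was 308 ± 53.2 CPM (SD, n = 4) in LFD and 298 ± 28.5 in HFD, against 360 ± 49.2 in HFD + siRNA and 224 ± 31.2 with the inhibitor, with Clec4f, a lectin of Kupffer cells, as the most abundant. With HFD none of the 11 passed (median log2 fold change -0.09), and with the siRNA none passed although all 11 differences were positive (median 0.29). With the inhibitor Clec4f (-0.51), Cd5l (-0.54) and Folr2 (-0.50) fell against HFD (median -0.32), where 9 of the 11 differences were negative and 2 were positive. Between the treatments, 8 of the 11 were lower with the inhibitor than with the siRNA (median -0.73). Of those 8, the calls of Vsig4 (highest adjusted p = 0.134) and Cd163 (0.0563, without HFD + Inhib replicate 2) were lost when some library was left out. Marco, Vsig4 and C1qc did not pass against HFD. The rise of Mmp12 with HFD was measured in libraries where no Kupffer cell marker was called for that comparison. The lower Trem2, Lgals3 and Tyrobp with the inhibitor were measured in libraries where 3 of the 11 Kupffer cell markers were called lower than in HFD. Against HFD + siRNA, 8 of the 11 were called lower. The part of the Kupffer cell markers in these differences was not tested.

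Of 7 monocyte markers 6 were tested, and Cx3cr1 (1.19) and Ccr2 (0.93), the receptors of recruited monocytes, rose with HFD. Their medians were 0.22 with HFD, -0.48 with the siRNA and -0.79 with the inhibitor, where Plac8 (-0.80) and F13a1 (-1.71) fell, while Lyz2, the most abundant, and Ly6c2 did not pass. F13a1 had 0 to 8 counts in the HFD + Inhib libraries. The summed level was 36.1 ± 10.2 CPM in LFD and 35.1 ± 5.07 in HFD, against 34.4 ± 2.77 in HFD + siRNA and 30.6 ± 4.47 with the inhibitor. Of 7 dendritic cell markers 6 were tested (medians 0.23, -0.19 and -0.26), and Siglech fell with the inhibitor (-1.54), while Xcr1, Clec9a and Zbtb46, the most abundant, did not pass. Of 9 markers of T, NK and B cells 7 were tested (medians 0.30, -0.40 and -0.85), and Nkg7 (-1.95) and Ms4a1 (-2.31) fell with the inhibitor (Nkg7 had 56 counts in HFD replicate 2 and 5 to 15 in the other HFD libraries, and without that library its difference was -1.17, adjusted p = 0.144), while Cd79a, the most abundant, did not pass. Ms4a1 had 2 to 6 counts in the HFD + Inhib libraries. Of 7 neutrophil markers 3 were tested (Csf3r, the most abundant, S100a9 and S100a8) and none passed against LFD or HFD in the 3 comparisons (medians -0.05, 0.18 and -0.59), and Ly6g, Ngp and Camp had at most 1, 3 and 3 counts in any library. Their part in the differences of the members was not tested.

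Among the other cells of the liver, 1 of 9 stellate cell and fibroblast markers rose with HFD, Reln (0.38), the most abundant, and Reln (-0.66) and Pdgfrb (-0.45) fell with the inhibitor (medians -0.04, 0.31 and -0.16), while Acta2, Dcn and Des did not pass. Of 6 endothelial markers none passed with HFD or siRNA, and Lyve1 rose with the inhibitor (0.86), while Kdr, Stab2, the most abundant, Clec4g and Pecam1 did not pass (medians -0.15, 0.16 and -0.08). None of 6 bile duct markers, which accompany Spp1, passed against LFD or HFD in these 3 comparisons (medians -0.34, -0.44 and 0.36), but Krt19 ranged from 0.671 to 14.2 CPM in LFD and from 0.212 to 8.81 CPM in HFD + Inhib. Cftr and Krt7 did not pass. Of 6 adipocyte markers Cfd and Adrb3 were tested, and both rose with the inhibitor (3.67 and 2.05), while Cfd rose (2.29) and Adrb3 fell (-0.94) with HFD (medians 0.67, 1.11 and 2.86). Cfd was at 6.70 CPM in HFD replicate 2 and at 0.797 to 1.79 CPM in the other HFD libraries. Without that library its difference with HFD was 1.15 (adjusted p = 0.219) and its rise with the inhibitor was 4.81. The other 4 markers were not tested and had lower summed counts in HFD + Inhib than in HFD, Adipoq 5 and 10, Plin1 1 and 9, Lep 0 and 21, and Retn 1 and 4. All HFD counts of Adipoq, Plin1 and Lep, and 3 of those of Retn, were in HFD replicate 2. The lower sums of these markers in HFD + Inhib thus rest on that library and show no direction without it. Of 8 hepatocyte markers, Apoa1 fell with HFD (-0.50), and Alb (-0.77), Ttr (-0.93) and Cps1 (-0.53) fell with the inhibitor, while Cyp2e1 and Hnf4a did not pass (medians -0.19, 0.15 and -0.24). The summed hepatocyte level was 82088 ± 7677 CPM in HFD and 58246 ± 1417 in HFD + Inhib, and most of this difference was in Alb alone (50980 and 29925 CPM). Cyp2e1 (5284 and 6323 CPM) and Tat (623 and 735 CPM) had higher means with the inhibitor, and neither passed. The part of these values in the falls of Trem2 and Lgals3 was not tested.

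**Figure D4:**
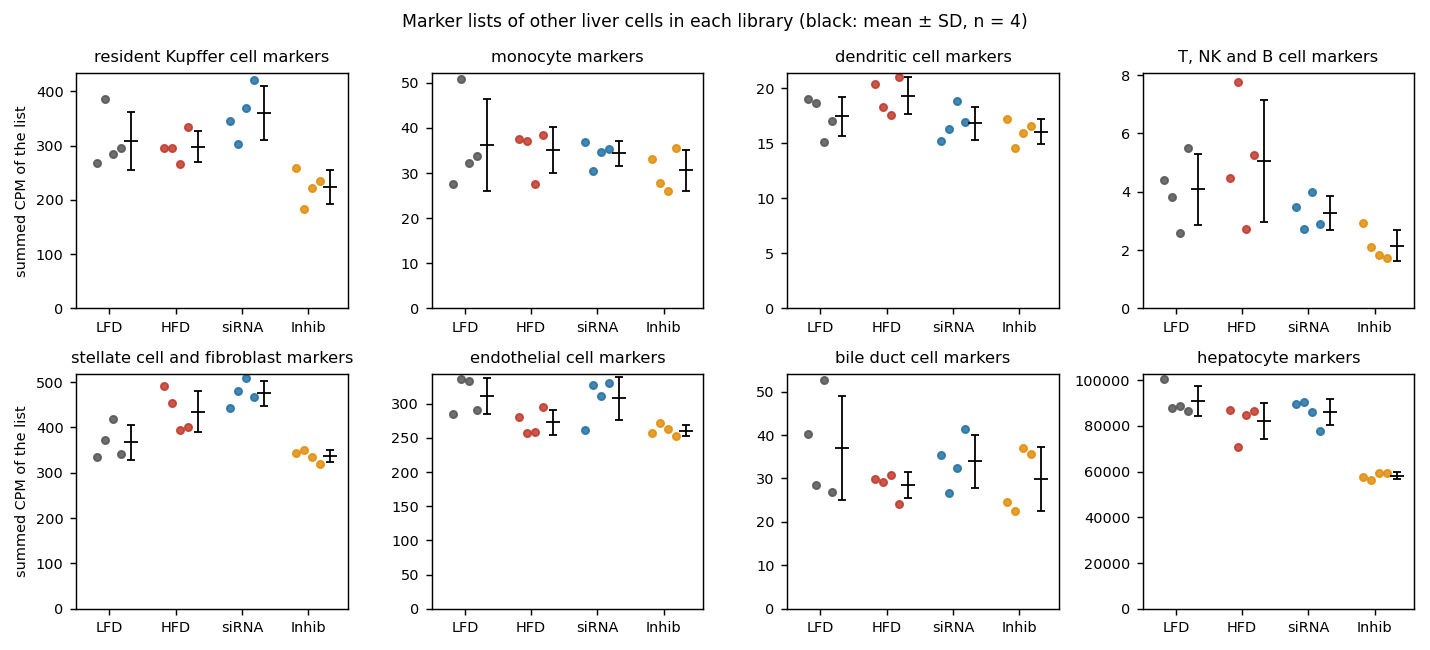
Summed CPM of 8 marker lists (vertical axes, from 0) in the 4 libraries of each group (points), with the mean ± SD in black. The Kupffer cell sum was 298 CPM in HFD and 224 CPM in HFD + Inhib, and the hepatocyte sum was lowest in HFD + Inhib (58246 CPM).

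The pattern of the members over the libraries was summarised as the mean of their z-scores of log2 CPM. The 10 other genes with the highest Pearson correlation to it over the 16 libraries were Adra2b (0.90), Grin3b (0.89), Tgfbi (0.89), Oasl1 (0.88), Gtf3c4 (0.88), Lcn2 (0.87), Tmem176a (0.86), Usp18 (0.86), Wdfy4 (0.86) and Tha1 (0.86). Since these genes were picked by their correlation with the members' mean z-score, a like order of their group means was built into the choice. All 10 had higher means in HFD and in HFD + siRNA than in LFD, and their lowest means in HFD + Inhib. Lcn2, which encodes lipocalin 2, was at 1.89 ± 0.345 CPM (SD, n = 4) in LFD and 7.53 ± 3.49 in HFD, against 8.10 ± 3.80 in HFD + siRNA and 1.82 ± 0.967 in HFD + Inhib. Tgfbi, an extracellular matrix protein of macrophages and stromal cells, was at 34.7 ± 3.19, 46.2 ± 2.67, 49.6 ± 4.52 and 30.7 ± 2.32 CPM in the same order. The correlations and the group levels of these genes hold the differences between groups and are a description.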

How the data were processed

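Liver RNA of 16 mice (4 per group) was assigned to groups by the deposited labels, which number 4 replicates in each group and give no further origin, so p-values measure the spread between these samples. The deposited table gives, for each gene symbol, the authors' expected counts, which are not scaled between libraries. The submitters' processing notes name STAR, RSEM and the build mm39, with versions not given in the sources used here, while the study's methods name a probe-based assay, so which assay made the table is not settled. RSEM divides reads that match several genes, and 15.1% of the values are not whole numbers. Replicates differed by more than counting error in all 24 pairs (chi-square per gene 18.5 to 136).

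Expected counts were rounded, and low genes were removed with filterByExpr (minimum count 10 and minimum total 15). Libraries were TMM-scaled (factors 0.929 to 1.09), and 6 contrasts were tested in 1 fit of 16 libraries by edgeR's quasi-likelihood test (dispersion 0.0380) with Benjamini-Hochberg adjustment over 18335 genes. Library totals had a median of 29570114, and a group with at most 3 counts in each library was taken as at the floor. Log2 CPM used a prior count of 2. All members and Khk were named. Of each other list, up to 4 genes with the smallest adjusted p in HFD versus LFD were named, with the most abundant cell type marker and markers near 0. Some genes of these lists are not reported here. The genes most like the members were the 10 with the highest correlation to their mean z-score among genes whose average log2 CPM was 0 or higher. Shared sequence was counted in words of 50 bases over GENCODE M21 transcripts, from which GC content and length were also taken (86.5% of tested genes had values). Promoter windows came from RefSeq.

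The members and lists were chosen with earlier results of these data known. Alternatives were DESeq2, its size factors (RLE), no filter, at least 10 counts in at least 8 libraries, a fit of only the 2 compared groups, a block for the replicate number, an adjusted p under 0.01, a GC content and length correction (per-library trends of 5 degrees of freedom, used as offsets), and each replicate left out in turn. Versions were R 4.3.3, DESeq2 1.42.0, edgeR 4.0.16 and limma 3.58.1, and Python 3.11.15 with pandas 2.3.3 and matplotlib 3.10.9. The scripts were tested on simulated data.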

Additional observations from a re-analysis of the deposited data

Results flagged for a closer look

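In 3 of 44 groups of 4 libraries examined over the members and Khk, a single library stood apart by Dixon's test at the 95% level, which chance alone gives in about 1 of 20 groups. All 3 were in the LFD group. Spp1 was lowest in LFD replicate 1, at 13.458 CPM, where the other LFD libraries were at 18.5 to 19.6 CPM. Itgax was highest in the same library, at 1.2158 CPM, where the others were at 0.923 to 0.932 CPM. Cd9 was lowest in LFD replicate 4, at 13.052 CPM, where the others were at 16.01 to 16.43 CPM. Without LFD replicate 1 the log2 fold change of Spp1 with HFD was 0.52 (adjusted p = 0.0949), and the fall of Cd9 with HFD stayed called whichever of the 8 libraries was left out.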

How the results depend on the processing

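Of 60 comparisons of a member between groups, 23 were called, 13 of these were called under every alternative, and none of the 23 changed sign. The 13 were Mmp12 and Cd9 for HFD versus LFD, Mmp12 for siRNA versus HFD, Mmp12, Cd9 and Lgals3 for inhibitor versus HFD, Trem2, Cd9, Lgals3 and Atp6v0d2 for inhibitor versus siRNA, Cd9 and Atp6v0d2 for siRNA versus LFD, and Cd9 for inhibitor versus LFD. The 6 members called with HFD became 3 in the fit of the 2 compared groups only, 3 with the GC correction, 2 at an adjusted p under 0.01 and 2 to 5 when 1 library was left out (2 without LFD replicate 1 or 3). The 4 called for inhibitor versus HFD were 3 to 6 under the alternatives that keep all libraries, with Spp1 and Tyrobp added by the GC correction. The 2 called for inhibitor versus LFD became 1 with no filter, with at least 10 counts in at least 8 libraries, with the 2 compared groups only, at 0.01 and with the GC correction, and 1 or 2 when 1 library was left out. Over all genes, an adjusted p under 0.01 left 1287 for HFD versus LFD, 689 for siRNA versus HFD, 1733 for inhibitor versus HFD, 3711 for inhibitor versus siRNA, 566 for siRNA versus LFD and 4123 for inhibitor versus LFD. The fit of the 2 compared groups only left 798 for siRNA versus LFD, and the GC correction left 1407 for siRNA versus HFD. Leaving out 1 library gave 2010 to 3693 genes for HFD versus LFD, 1101 to 1993 for siRNA versus HFD and 983 to 1460 for siRNA versus LFD.

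Changes of sign were found only for members that were not called. For inhibitor versus siRNA, Spp1 went from -0.01 to 0.00021 with RLE, 0.0069 with at least 10 counts in at least 8 libraries, 0.0012 with the 2 compared groups only, and -0.18 to 0.11 when 1 library was left out. With the GC correction Tyrobp was at -0.070 for siRNA versus HFD, and Spp1 was at -0.10 and Atp6v0d2 at -0.12 for inhibitor versus LFD. Leaving out 1 library gave -0.23 to 0.076 for Cd63 and -0.13 to 0.18 for Tyrobp with HFD, -0.71 to 0.044 for Trem2 for inhibitor versus LFD, and -0.13 to 0.22 for Itgax for siRNA versus LFD. Apart from the calls lost with fewer libraries, the cause was not tested.

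The labels state no pairing by replicate number. Same-numbered libraries of different groups correlated at -0.13 to 0.34 in their deviations from the group means (median 0.068). Differently numbered libraries of different groups correlated at -0.27 to 0.19 (median -0.017). Among the 16 libraries, 4 had their best match in another group at their own number. Whether same-numbered libraries share an origin was not tested. With the replicate number as a block, 1 member was called for inhibitor versus LFD, Lgals3 being lost (adjusted p = 0.0577), Gpnmb was not called with HFD (adjusted p = 0.0821), and Itgax was called for inhibitor versus HFD (adjusted p = 0.0290).

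Depth limits Mmp12, Gpnmb and Trem2 most, which had as few as 3 counts in a library.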
